A study of Mus musculus with 6 samples.

Results

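The genes examined here are 57 cell cycle and DNA replication genes, chosen by their symbols from a written list, among 14744 genes measured by RNA sequencing in Tfh cells. They comprise 24 genes of mitosis, 25 genes of S phase and 8 genes that control G1. A gene was tested when 3 or more of the 6 libraries had a value of 10 or higher, which 56 of the 57 genes and 11296 of all genes did. Of the 56, 55 reached that value in all 6 libraries and *Kif20a* reached it in 5, so that none was kept through 1 group alone. *Fen1*, the flap endonuclease of lagging strand synthesis, was listed at 25.2, 0 and 5.2 in WT replicates 1, 2 and 3 and at 0 in the other 3 libraries, and was not tested.

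The study compared T follicular helper (Tfh) cells, which give help to germinal center B cells, from the mesenteric lymph nodes (MLNs) of 3 WT samples and 3 samples labelled Bach2-cKO. Each sample held 10000 to 30000 cells sorted as CD4+B220-CD44+PD-1+CXCR5+. The WT animals of the study are Cd4-Cre littermates, and the Bach2-cKO animals are Bach2fl/flCd4-cre mice, whose floxed allele had its neo cassette removed with FLPe. Both are C57BL/6 in the labels, and C57BL/6J in the study's methods, and the sources used here name no treatment. Cd4-Cre acts in the T cell lineage, so the deletion is not limited to Tfh cells. Mice were 2 to 3 months old. The number of animals in a sample is not given in the sources used here, and p-values therefore measure the spread between these samples, which may be technical.

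A dividing cell passes from G1, where D-type cyclins and their kinases relieve the block by Rb, into S phase, where E2F target genes provide the machinery that copies DNA, and then into mitosis, where cyclin B and Cdk1 drive chromosome segregation. Transcripts of S phase genes peak around the start of replication, and those of mitosis genes peak in G2 and M. Activated T cells divide rapidly, while Tfh cells of germinal centers include both cycling and resting cells. In bulk RNA, fewer cycling cells and less of a transcript in each cell cannot be told apart.

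The value given for each gene is a normalized count, the number of reads on the gene divided by a size factor of its library. Values are listed in the order of replicates 1, 2 and 3, those of WT first and then those of the libraries labelled Bach2-cKO (Bach2-deficient). The values of the WT libraries summed to 7809700, 7387320 and 8135330, and those of the libraries labelled Bach2-cKO to 7456440, 7362290 and 7361230. Reads recovered from the values numbered 6585742 and 7823717 in WT replicates 2 and 3 and 5045131, 10987752 and 7197242 in the libraries labelled Bach2-cKO. WT replicate 1 stood apart with 11648 genes above 0, against 13217 and 13247 in the other WT libraries and 13111 to 13567 in those labelled Bach2-cKO.

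*Bach2*, the targeted gene, encodes a transcriptional repressor and lies at chr4:32238804-32586108 (GRCm38, plus strand). It was at 233, 222 and 105 normalized counts in WT and at 399, 763 and 591 in the libraries labelled Bach2-cKO. Each library labelled as deficient was above each WT library, which goes against the label, and the direction of every difference below rests on these labels as given. The log2 fold change was 1.68 (SE 0.37, adjusted p = 0.141, limma), which was not called. DESeq2 on 5 libraries called it, at 1.81 (adjusted p = 0.00123), as did limma with library weights, at 2.36 (adjusted p = 0.000186), while edgeR gave 1.83 (adjusted p = 0.148). With a trend in transcript length and GC content removed from each library, limma gave 1.105 (adjusted p = 0.293). Values are per gene, and reads on exons outside the floxed part were not separated here. *Foxp3* was at 222, 315 and 344 in WT and 47.3, 140 and 91.0 in the libraries labelled Bach2-cKO. By flow cytometry, the paper reports a shift toward Tfh cells and away from Foxp3+ cells among the follicular T cells of Bach2-deficient mice. That is a share of cells by protein, a measure unlike these RNA values. The sort used here did not select on Foxp3.

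The sorted cell type was checked against marker genes. The 11 T cell markers summed to 86550, 84800 and 108400 in WT and 72270, 70530 and 82560 in the libraries labelled Bach2-cKO, led by *Cd3d*, *Cd3g* or *Trac*, and the 12 Tfh markers to 30190, 36450 and 48620 against 37890, 28930 and 36160, led by *Sh2d1a*, with none at 0. Of the 17 B cell markers, *Cd74*, which led the list, was at 10856, 13382 and 9236 against 3252, 8453 and 3279. The B cell list summed to 22520, 26790 and 17810 in WT and 9992, 19640 and 7647 in the other group. In WT replicate 1 the MHC class II genes *H2-Aa*, *H2-Ab1* and *H2-Eb1* of that list were at 4608, 4406 and 2357. Its members went both ways. Log2 fold changes (libraries labelled Bach2-cKO over WT) were -1.72 for *Cd79a* and -2.83 for *Ms4a1* but 0.94 for *Cd22* and 1.40 for *Cr2*. Of these genes, only *Ms4a1* had groups that did not overlap. *Cr2* was at 0, 32.5 and 23.9 against 19.2, 56.3 and 12.3. Without WT replicate 1 the 4 log2 fold changes were -2.75, -2.88, 0.46 and -0.22. In WT replicate 1, 6 of the 17 B cell markers were at 0. The 8 plasma cell markers summed to 2199, 30630 and 8671 against 3690, 1921 and 1879, and in WT replicate 2 *Jchain* alone was at 28803. The 6 germinal center B cell markers summed to at most 489 in a library, led by *S1pr2*. Myeloid markers, 13 genes led by *Lyz2*, summed to 2508, 8415 and 4305 against 2232, 5992 and 1940, and 5 erythroid markers to 5.05, 744 and 7.28 against 29.6, 30.8 and 2867. The 9 CD8 and cytotoxic markers, led by *Nkg7*, summed to 7094, 5778 and 4598 against 1881, 5113 and 2808. They went both ways, with log2 fold changes of -1.22 for *Nkg7* and -2.94 for *Gzmk* but 3.05 for *Gzmb* and 1.15 for *Gzma*. Groups overlapped for *Gzmb* and *Gzma* and not for *Nkg7* and *Gzmk*. Without WT replicate 1 the log2 fold changes of *Nkg7*, *Gzmk*, *Gzmb* and *Gzma* were -0.89, -2.97, 1.62 and 0.63. Treg and Tfr markers, 8 genes led by *Ikzf2*, summed to 7052, 7578 and 9619 against 7940, 6630 and 5965. These also went both ways, with -1.76 for *Foxp3* and 0.59 for *Gpr83*, and groups overlapped only for the second. Naive T cell markers, 7 genes led by *Tcf7*, summed to 11900, 12680 and 9591 against 14000, 13870 and 12030. The part that RNA of other cells plays in the values below was not tested.

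Differences were tested with limma on log2(normalized count + 1), a scale on which the change of genes with low values is understated. A gene was called when its Benjamini-Hochberg adjusted p over all 11296 genes was under 0.01 and its change exceeded 2-fold. Of the 56 members, 0 were called higher and 0 lower, as was 0.0% of all genes tested in either direction. The adjusted p of the members was 0.144 or higher. Counted at an unadjusted p under 0.05, 15 members were lower, where 10.2% of all genes tested were lower, and 5 were higher, where 10.1% of all genes were higher. The 15 lower members made up 26.8% of those tested and the 5 higher ones 8.93%. Groups did not overlap for 4 lower members, against 12.2% of all genes, and for 5 higher members, against 14.6%. Single libraries moved these counts. The count of 15 lower members was 8 without WT replicate 1, against 9.43% of all genes in the same fit, and 26 without WT replicate 2, against 10.2%. It was 5 without replicate 1 labelled Bach2-cKO, against 5.36%, and 5 without replicate 2 of that group, against 5.92%. The count of 5 higher members was 2 without WT replicate 3, against 9.68% of all genes, and 1 and 2 without replicates 1 and 2 labelled Bach2-cKO, against 4.14% and 4.74%. The count of 5 higher ones without overlap was 8 without WT replicate 1, against 20.5% of all genes. Without WT replicate 1, the log2 fold change of 36 of the 56 members moved by more than 1.5 times, 6 of them to the other side of 0. For a single gene, an exact permutation test of 3 libraries against 3 cannot give a two-sided p below 0.1.

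Other tests were run beside this one. DESeq2 on the recovered reads of 5 libraries, without WT replicate 1, called 0 members in either direction, where it called 0.292% of all genes higher and 0.505% lower. On those reads edgeR, by its quasi-likelihood test, called 0 members and 0.0% of genes in either direction. At an unadjusted p under 0.05, DESeq2 had 5 members higher and 8 lower, against 9.66% and 9.45% of all genes, and edgeR 5 higher and 5 lower, against 9.55% and 8.77%. A weight for each library in limma called 10 members lower, against 5.02% of all genes, and 2 higher, against 4.97%. The 10 were *Ccnb1*, *Ccnb2*, *Aurka*, *Kif20a*, *Ndc80*, *Nuf2*, *Cdc45*, *Gins2*, *Prim1* and *Tk1*, and the 2 were *Uhrf1* and *Cdk6*. That fit weighted WT replicate 1 at 0.206 and replicate 2 labelled Bach2-cKO at 5.54.

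Libraries of the same group differed from each other. Relative to each gene's mean over the 6 libraries, the median log2 value of the mitosis members was 0.72, -0.48 and 0.44 in WT and -0.30, -0.72 and 0.26 in the libraries labelled Bach2-cKO. The groups overlapped, with WT replicate 2 low among the WT libraries and replicate 3 high among the others. WT replicate 2 was the lowest of the 3 WT libraries for 24 of 24 mitosis members, as it was for 32.0% of all genes tested, and replicate 2 labelled Bach2-cKO was the lowest of its group for 21 of 24, as for 25.7% of all genes.

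The S phase members were split in another way. Their median was 0.77, -0.15 and 0.12 in WT and -0.26, -0.35 and 0.01 in the other group. WT replicate 1 was the highest of the WT libraries for 22 of 24 S phase members, as for 38.3% of all genes, and WT replicates 2 and 3 lay closer together than they did for mitosis. The G1 control members had medians of -0.12, 0.07 and 0.17 against 0.08, -0.03 and 0.18, with neither group set apart. Over all genes tested the medians were -0.06, 0.02 and 0.05 against 0.08, 0.07 and 0.05.

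**Figure D1:**
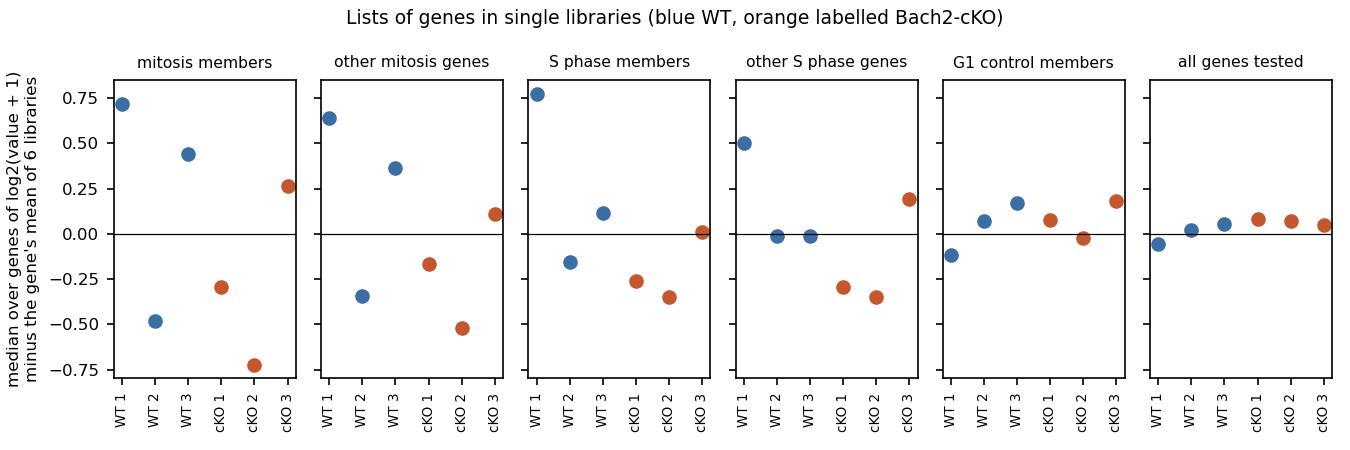
Median over the genes of a list of log2(normalized count + 1) minus the gene's mean over 6 libraries, for each library (blue WT, orange labelled Bach2-cKO, 1 dot per library), with cell cycle genes outside the 57 as other genes. Mitosis members run from -0.72 to 0.72 within overlapping groups, while all genes tested run from -0.06 to 0.08.

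As groups, the median log2 fold change was -0.36 for the mitosis members (libraries labelled Bach2-cKO over WT), -0.44 for the S phase members and 0.20 for the G1 control members, beside 0.08 over all genes tested. Without WT replicate 1 these medians were -0.16, -0.23 and -0.08, beside 0.03 over all genes, and leaving out each library in turn put them between -0.68 and -0.16, between -0.64 and -0.23 and between -0.08 and 0.32. Of the mitosis members 19 of 24 were below 0, of the S phase members 16 of 24, and of the G1 control members 3 of 8, against 5111 of 11296 genes. Leaving out WT replicate 2 put the count of lower members whose groups did not overlap at 26 instead of 4, against 18.8% of all genes in the same libraries. Leaving out replicate 3 labelled Bach2-cKO put it at 23, against 23.0% of all genes.

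**Figure D2:**
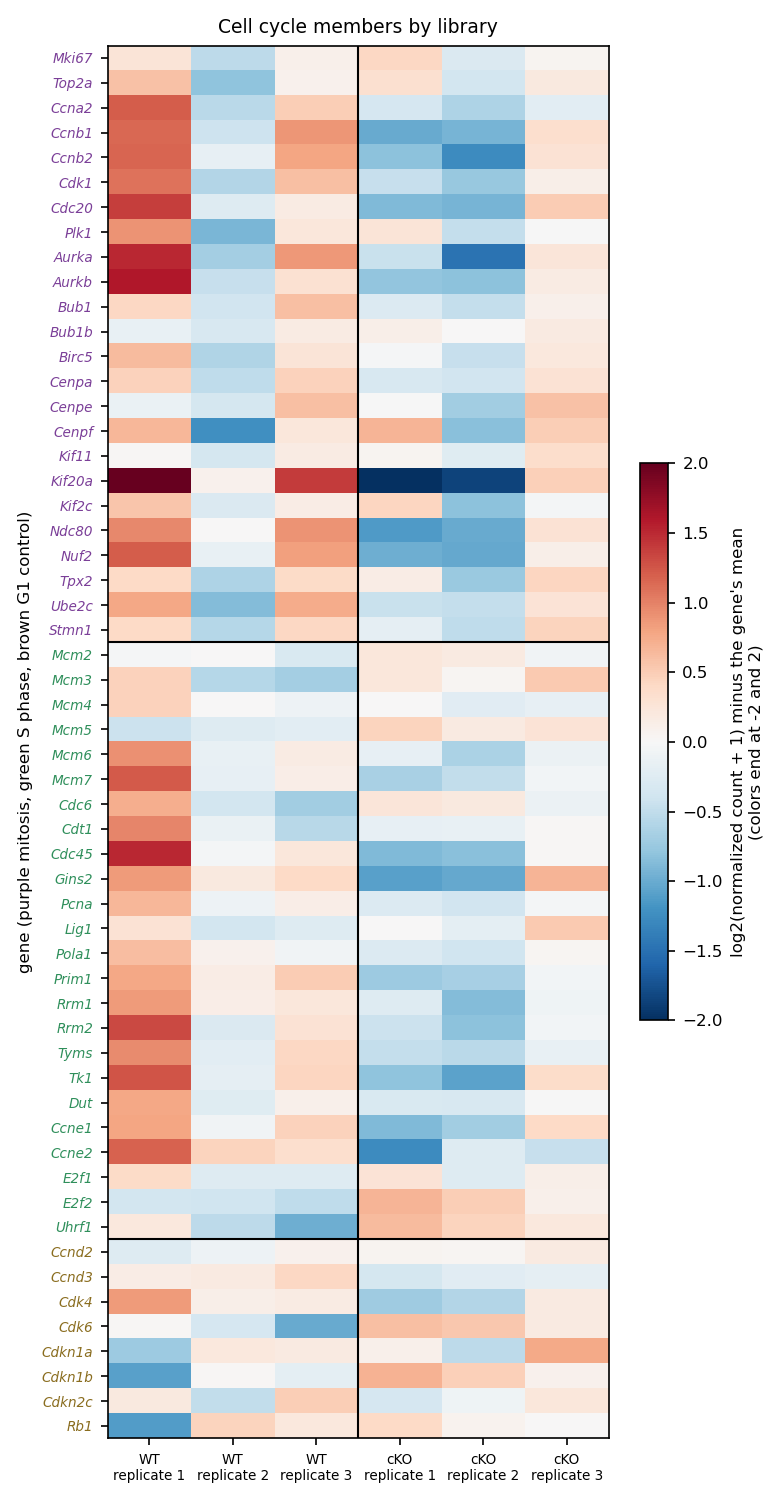
Log2(normalized count + 1) minus the gene's mean over 6 libraries for the 56 members tested, 1 line each, in each library (cKO for Bach2-cKO), in colors that end at -2 and 2. WT replicate 1 was the highest library for 34 of the 56 members, against 26.7% of all genes tested.

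The mitotic cyclins and kinases had a median log2 fold change of -0.96 over 7 genes, all below 0, and one of -0.40 without WT replicate 1. *Ccnb2*, cyclin B2, a partner of Cdk1, was at 2438, 974 and 1876 in WT and 613, 456 and 1336 in the libraries labelled Bach2-cKO. WT replicate 1 was the highest library, and replicate 3 labelled Bach2-cKO lay above WT replicate 2, so that the groups overlapped, with a log2 fold change of -1.19 (SE 0.42, adjusted p = 0.175). *Ccnb1*, cyclin B1, was at 2006, 679 and 1662 against 449, 473 and 1137, also with replicate 3 of the second group above WT replicate 2, and with a log2 fold change of -1.07 (SE 0.45, adjusted p = 0.219). *Cdk1*, the kinase that both cyclins activate, was at 2056, 641 and 1461 against 705, 574 and 1049. *Ccna2*, cyclin A2, which acts in S phase and G2, was at 1533, 454 and 929 against 523, 428 and 569.7. For both, WT replicate 1 was the highest library, replicate 2 labelled Bach2-cKO was the lowest, and the groups overlapped. Log2 fold changes were -0.73 for *Cdk1* and -0.78 for *Ccna2*, with intervals that held 0, and -0.36 and -0.37 without WT replicate 1.

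*Aurkb*, the kinase of the chromosomal passenger complex, was at 1257, 303 and 511 against 241, 235 and 464. *Aurka*, the centrosomal Aurora kinase, had a log2 fold change of -1.13 (SE 0.57, adjusted p = 0.279). *Plk1*, a kinase of mitotic entry and exit, was at 485, 138 and 306 against 313, 188 and 259.8. All libraries labelled Bach2-cKO lay inside the WT range for *Plk1*, and 1 of them did for *Aurkb*. Without WT replicate 1 the log2 fold change of *Plk1* was 0.27 instead of -0.14, and that of *Aurkb* was -0.40 instead of -0.96.

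Promoters were compared because many members of the mitosis and S phase lists were high in WT replicate 1, while the G1 control members were split. The mitosis and S phase lists differed in other libraries. WT replicate 3 was the lowest WT library for 9 of 24 S phase and 0 of 24 mitosis members, against 23.0% of all genes. Whether promoter motifs bear on these values was not tested. RefSeq promoters (GRCm38.p6, 250 bases before to 50 after the start) matched 47 of the 57 members with 56 promoters, some genes having several. Each was searched on both strands for the E2F site, spelled TTTCCCGC, TTTCGCGC, TTTGCCGC or TTTGGCGC, for the cell cycle genes homology region (CHR) TTTGAA or TTCGAA, for the CCAAT box, and for the AP-1 or Bach-like core TGANTCA. Matches on the 2 strands or of different motifs can overlap, as 2 E2F matches do in *Mcm5*. The CHR stood in 15 of 19 mitosis promoters, 5 of 28 S phase promoters and 0 of 9 G1 control promoters, against 19.2% of all 32851 promoters. CCAAT stood in 15, 16 and 3 of them, against 37.4%, and CHR and CCAAT together in 13 of the mitosis promoters, against 7.52%. The E2F site stood in 1 mitosis, 10 S phase and 0 G1 control promoters, against 2.26%. TGANTCA stood in 0 of the 56, against 7.81%. A match describes letters and is not shown to be a site.

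The promoters of 3 mitosis and 2 S phase members are printed because their genes were at different sides of 0, and were chosen after the counts were seen. Capitals mark every match to any of the 4 motifs on either strand. They run 5′ to 3′ on the gene's strand, from *Ccnb2* at chr9:70421505-70421804, *Cdk1* at chr10:69352863-69353162, *Mki67* at chr7:135716330-135716629 and *Mcm6* at chr1:128359656-128359955, all on the minus strand, and from *Mcm5* at chr8:75109259-75109558 on the plus strand.
Ccnb2: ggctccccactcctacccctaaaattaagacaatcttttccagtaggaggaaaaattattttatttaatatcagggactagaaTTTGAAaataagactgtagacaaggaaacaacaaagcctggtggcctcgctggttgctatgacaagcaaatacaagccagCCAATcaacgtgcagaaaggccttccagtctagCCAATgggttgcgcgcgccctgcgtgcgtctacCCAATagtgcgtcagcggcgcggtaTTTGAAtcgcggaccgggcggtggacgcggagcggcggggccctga
Cdk1: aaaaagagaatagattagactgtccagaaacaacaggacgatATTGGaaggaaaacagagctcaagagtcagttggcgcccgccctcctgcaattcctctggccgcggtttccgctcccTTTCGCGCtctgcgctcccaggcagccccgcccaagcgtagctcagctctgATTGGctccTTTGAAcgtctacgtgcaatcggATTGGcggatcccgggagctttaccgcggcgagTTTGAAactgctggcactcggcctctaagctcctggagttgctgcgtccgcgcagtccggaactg
Mki67: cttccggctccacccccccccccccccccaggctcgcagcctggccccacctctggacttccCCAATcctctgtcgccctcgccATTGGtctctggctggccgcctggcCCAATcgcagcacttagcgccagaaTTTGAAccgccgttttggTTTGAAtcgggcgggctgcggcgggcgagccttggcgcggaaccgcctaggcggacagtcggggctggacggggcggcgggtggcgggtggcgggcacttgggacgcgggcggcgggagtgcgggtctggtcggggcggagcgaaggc
Mcm5: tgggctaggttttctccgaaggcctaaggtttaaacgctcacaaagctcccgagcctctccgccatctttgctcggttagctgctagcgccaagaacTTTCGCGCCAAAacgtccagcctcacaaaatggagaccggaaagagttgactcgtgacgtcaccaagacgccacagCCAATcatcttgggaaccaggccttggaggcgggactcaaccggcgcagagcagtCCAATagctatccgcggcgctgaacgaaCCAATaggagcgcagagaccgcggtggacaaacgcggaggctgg
Mcm6: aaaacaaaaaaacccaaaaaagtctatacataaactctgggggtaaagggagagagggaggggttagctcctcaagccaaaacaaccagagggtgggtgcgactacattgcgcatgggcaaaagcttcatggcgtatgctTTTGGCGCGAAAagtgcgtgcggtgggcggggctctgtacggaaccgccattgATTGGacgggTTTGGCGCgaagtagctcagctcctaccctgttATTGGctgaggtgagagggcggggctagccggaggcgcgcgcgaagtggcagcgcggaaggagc

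*Cdc20*, which activates the anaphase-promoting complex, was at 592, 188 and 253 in WT and 123, 119 and 323 in the libraries labelled Bach2-cKO. *Bub1*, a kinase of the spindle checkpoint, was at 379, 216 and 432 against 234, 202 and 305. The groups overlapped for both, and replicate 3 labelled Bach2-cKO was the highest of its group. *Bub1b*, the checkpoint protein BubR1, had a log2 fold change of 0.20, which turned to -0.004 with a trend in transcript length and GC content removed from each library. *Ube2c*, the ubiquitin-conjugating enzyme of that complex, had one of -0.43.

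At the kinetochore, *Nuf2* and *Ndc80* encode subunits that bind each other in one complex. *Nuf2* was at 989, 386 and 749.7 in WT and 216, 209 and 460.2 in the other group, a log2 fold change of -1.26 (SE 0.41, adjusted p = 0.159). *Ndc80* was at 762, 391 and 726 against 177, 194 and 479, a log2 fold change of -1.24 (SE 0.41, adjusted p = 0.164). In both, replicate 3 labelled Bach2-cKO lay above WT replicate 2, and the remaining libraries of that group lay below each WT library.

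*Birc5*, survivin of the passenger complex, was at 3445, 1465 and 2666 against 2184, 1614 and 2579.5. *Cenpa*, the histone H3 variant of centromeres, was at 2319, 1190.1 and 2325 against 1354, 1291 and 2066. WT replicate 2 was the lowest of the 6 libraries for both, and the groups overlapped, with log2 fold changes of -0.19 and -0.28. *Cenpe*, a kinetochore motor, and *Cenpf*, a large kinetochore protein, had log2 fold changes of -0.08 and 0.22, the second of which turned to -0.21 with that trend removed.

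*Kif20a*, a kinesin of cytokinesis, had the lowest log2 fold change of the members, -2.79 (SE 0.89, 95% interval -4.77 to -0.81, adjusted p = 0.158). It was at 384, 61.7 and 154 in WT and 7.39, 15.4 and 80.8 in the libraries labelled Bach2-cKO. Replicate 3 of the second group lay above WT replicate 2, so the groups overlapped, and the value of 7.39 rests on few reads. On recovered reads of 5 libraries, without WT replicate 1, the log2 fold change was -1.66 in DESeq2 and -1.62 in edgeR, and limma without that library gave -2.14. The other spindle genes were closer to 0. Log2 fold changes were 0.11 for *Kif11*, the motor that separates the poles, -0.28 for *Kif2c*, a microtubule depolymerase, -0.12 for *Tpx2*, an activator of Aurora A, and -0.17 for *Stmn1*, stathmin. With the trend removed *Kif11* and *Stmn1* turned to -0.07 and 0.08.

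*Mki67*, which encodes Ki-67, was at 1772, 1033 and 1588 in WT and 1980.4, 1208 and 1534 in the libraries labelled Bach2-cKO. *Top2a*, topoisomerase II alpha, was at 2233, 855 and 1583 against 1865, 1153 and 1719. For both genes the groups overlapped throughout, with WT replicate 2 the lowest of 6 libraries. The log2 fold changes were 0.11 (95% interval -0.47 to 0.70) and 0.10 (95% interval -0.65 to 0.84), and turned to -0.39 and -0.16 with the trend removed.

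**Figure D3:**
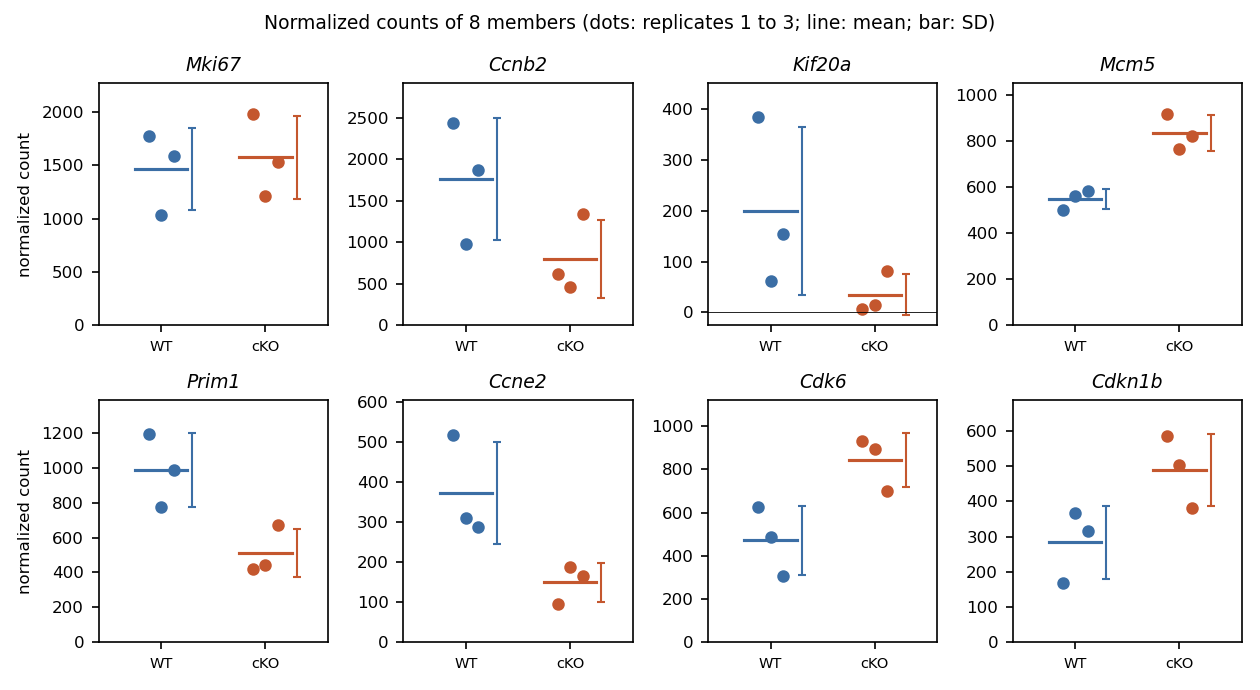
Normalized counts of 8 members, picked after their values were seen, in WT and in the libraries labelled Bach2-cKO (cKO): dots are replicates, lines means and bars SD (n = 3). The groups overlap for *Mki67*, *Ccnb2*, *Kif20a* and not for *Mcm5*, *Prim1*, *Ccne2*, *Cdk6* and *Cdkn1b*.

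Among the S phase members, the Mcm2 to Mcm7 genes encode the 6 subunits of the helicase loaded at origins. They lay on both sides of 0, with 3 above, 3 below and a median log2 fold change of -0.02, or 0.09 without WT replicate 1. *Mcm5* was at 502, 563 and 584 in WT and 919, 768 and 821 in the other group. Every library labelled Bach2-cKO was above every WT library, and the log2 fold change was 0.60 (SE 0.21, adjusted p = 0.169), or 0.38 with the trend removed. *Mcm2* was at 513, 526 and 420.1 against 607, 590.3 and 494, with a log2 fold change of 0.21 that became -0.02 with the trend removed. *Mcm6* was at 3014, 1447 and 1784 against 1423, 1029 and 1469, and *Mcm7* at 1533, 588 and 717 against 421, 468 and 633. For *Mcm6* and *Mcm7* WT replicate 1 was far above the other libraries and the groups overlapped. *Mcm3* and *Mcm4* had log2 fold changes of 0.53 and -0.25.

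*Cdc6* and *Cdt1* load that helicase. *Cdc6* was at 313, 146 and 116 in WT and 225, 216 and 175 in the other group, and *Cdt1* at 566, 260.2 and 194 against 254, 259 and 290.5. WT replicate 1 was the highest and WT replicate 3 the lowest library for both, and with the trend removed the log2 fold change of *Cdc6* turned from 0.22 to -0.13. *Cdc45* and *Gins2* join the helicase when origins fire. *Cdc45* was at 912, 309.6 and 372 against 173, 179 and 326, a log2 fold change of -1.12 (SE 0.43, adjusted p = 0.193). Replicate 3 labelled Bach2-cKO lay above WT replicate 2, so that the groups overlapped. *Gins2* had a log2 fold change of -0.95 (SE 0.46, adjusted p = 0.27).

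At the fork, *Prim1*, the catalytic subunit of primase, was at 1195, 776 and 988 in WT and 423, 442 and 672 in the libraries labelled Bach2-cKO. Every library of the second group was below every WT library, and the log2 fold change was -0.96 (SE 0.26, 95% interval -1.54 to -0.37, adjusted p = 0.144). *Pcna*, the sliding clamp, was at 5638, 3327 and 3907 against 2952, 2743 and 3462, where replicate 3 labelled Bach2-cKO lay just above WT replicate 2. *Lig1*, the ligase of Okazaki fragments, and *Pola1*, the catalytic subunit of polymerase alpha, had log2 fold changes of 0.23 and -0.42, the first of which turned to -0.04 with the trend removed.

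The genes of nucleotide supply all lay below 0, with a median of -0.80 over 5 genes, of which 4 had an unadjusted p under 0.05, as did 10.2% of all genes in the lower direction. Without WT replicate 1 the median was -0.49 and only *Rrm1* had an unadjusted p under 0.05. Without replicate 1 or replicate 2 labelled Bach2-cKO, 1 and 0 of the 5 had one. *Rrm1*, the large subunit of ribonucleotide reductase, was at 1984, 1203 and 1287 in WT and 924, 602 and 1042 in the other group, without overlap and with a log2 fold change of -0.80 (SE 0.27, adjusted p = 0.171). *Rrm2*, the small subunit, was at 4827, 1594 and 2369.8 against 1437, 1097 and 1863, and *Tyms*, thymidylate synthase, at 3161, 1419 and 2191 against 1179, 1134 and 1484. In both, the WT libraries spread widely and replicate 3 labelled Bach2-cKO overlapped WT replicate 2. *Tk1*, thymidine kinase, and *Dut*, which removes dUTP, had log2 fold changes of -1.01 and -0.42.

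Of the genes of S phase entry, *Ccne2* and *Ccne1* encode cyclins E2 and E1, the partners of Cdk2. *Ccne2* was at 518, 311 and 287 in WT and 94.6, 189 and 165 in the libraries labelled Bach2-cKO, without overlap and with a log2 fold change of -1.32 (SE 0.36, adjusted p = 0.144). *Ccne1* was at 537, 296 and 427 against 168, 192 and 408, where replicate 3 of the second group lay within the WT range. *E2f1*, an activator of the S phase genes, was at 80.7, 51.6 and 52.0 against 75.4, 51.6 and 67.5, with overlapping groups and a log2 fold change of 0.09 that turned to -0.24 with the trend removed. *E2f2*, a related activator, was at 132, 130.1 and 121 against 276, 241 and 184, and *Uhrf1*, a cofactor of maintenance DNA methylation, at 401, 239 and 176 against 536, 471 and 401. For both, every library labelled Bach2-cKO lay above every WT library, for *Uhrf1* by the margin of 400.93 in replicate 3 of that group against 400.7 in WT replicate 1. The log2 fold changes were 0.85 and 0.86 (adjusted p = 0.184 and 0.193), or 0.19 and 0.52 with the trend removed.

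In G1 control, *Ccnd2* and *Ccnd3* encode D-type cyclins. *Ccnd2* was at 2676, 2991 and 3374 in WT and 3309, 3287 and 3601 in the other group, with overlapping groups and a log2 fold change of 0.18 that turned to -0.25 with the trend removed. *Ccnd3* was at 1494, 1527 and 1793 against 1049, 1153 and 1191, without overlap and with a log2 fold change of -0.50 (SE 0.19, adjusted p = 0.191), or -1.01 with the trend removed. *Cdk4* and *Cdk6*, the kinases they bind, lay on opposite sides of 0. *Cdk4* had a log2 fold change of -0.75 (SE 0.29, adjusted p = 0.199) and overlapping groups. *Cdk6* was at 625, 486 and 307 against 931, 897 and 701, higher in every library labelled Bach2-cKO, with a log2 fold change of 0.88 (SE 0.29, adjusted p = 0.159) that was 0.42 with the trend removed.

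The inhibitors of cyclin-dependent kinases and Rb itself had a median of 0.27 over 4 genes. It turned to -0.08 without WT replicate 1, -0.091 in DESeq2 on 5 libraries and -0.20 with library weights. That median was 0.50 without WT replicate 2, 0.43 without WT replicate 3 and 0.45 without replicate 2 labelled Bach2-cKO. *Cdkn1b*, p27, was at 169, 368 and 316 in WT and 585, 502 and 382 in the other group, without overlap and with a log2 fold change of 0.84 (SE 0.33, adjusted p = 0.204). *Cdkn1a*, p21, was at 75.7, 145 and 142 against 134, 87.1 and 212, and *Cdkn2c*, p18, at 379, 233 and 467 against 262, 309.6 and 387. *Rb1*, the retinoblastoma protein, was at 245, 727 and 617 against 705, 563 and 536. The groups overlapped for these 3 genes. WT replicate 1 was the lowest library for *Cdkn1a*, *Cdkn1b* and *Rb1*, as it was for 34.2% of all genes tested. It was the highest library for 18 of 24 S phase members, against 26.7% of all genes.

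**Figure D4:**
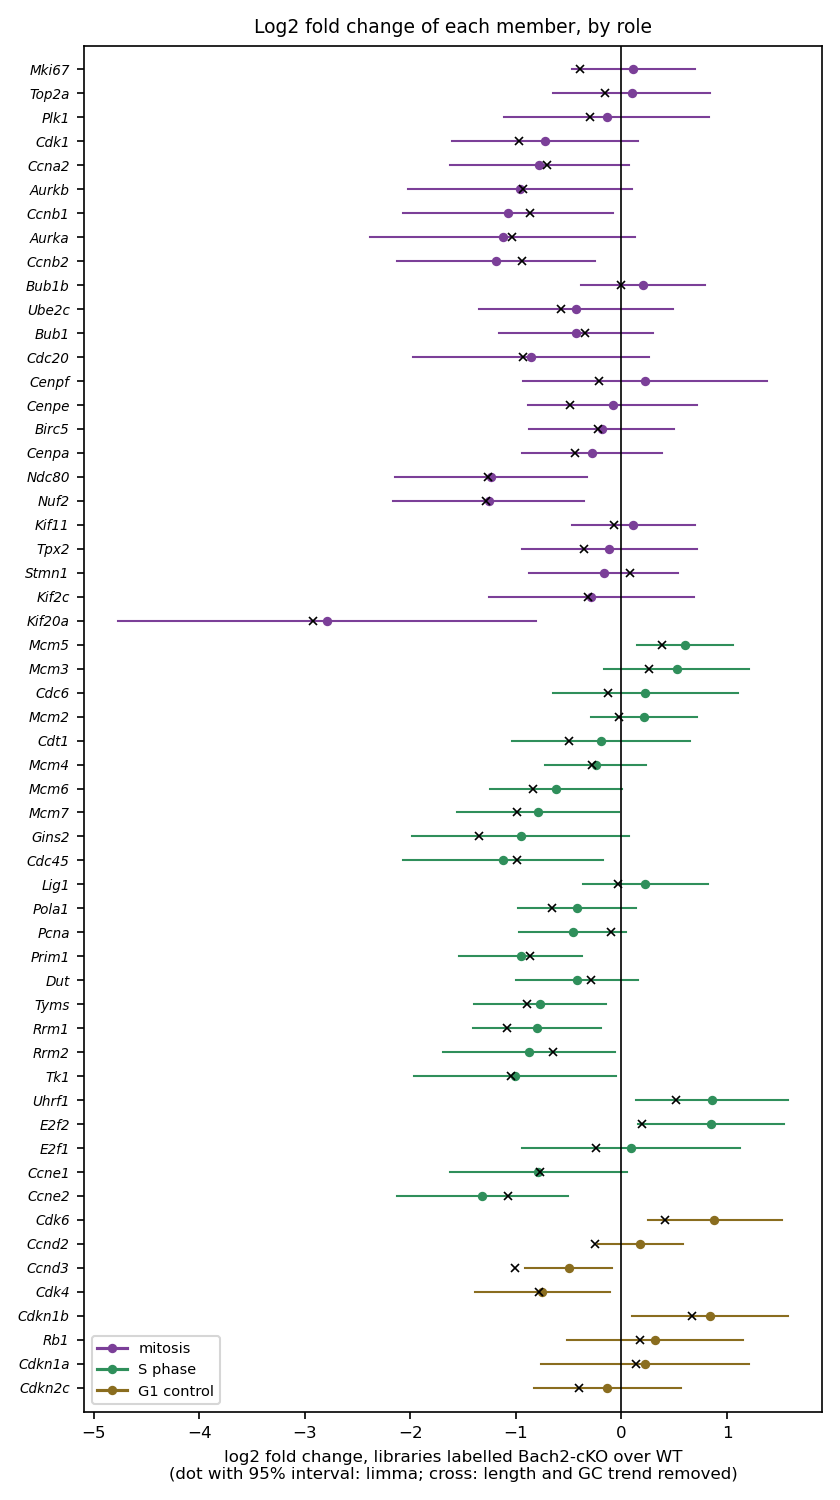
Log2 fold change of each member tested, libraries labelled Bach2-cKO over WT, with its 95% interval from limma, and the value with the length and GC trend removed (cross), ordered by role. The dots run from -2.79 for *Kif20a* to 0.88 for *Cdk6*, and none passed an adjusted p of 0.01 in that test.

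Levels between genes were compared per length of the longest transcript, since reads accrue with length. In WT, *Stmn1* was highest with 4390 normalized counts per kilobase, followed by *Pcna* with 2830, while *E2f1* was at 22.3 and *Fen1* at 4.27. In the libraries labelled Bach2-cKO these levels were 3870, 2010, 23.5 and 0. Whether the 0 listed for *Fen1* reflects low expression was not tested. *Mki67* was at 146 and 156 per kilobase, and *Birc5* at 757 and 638.

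Log2 fold changes of the members ran with transcript length, as they did across all genes. Spearman's rho between them was 0.414 over 56 members, a description across genes that share the same 6 libraries, and 0.32 over 11264 genes. A split at 2492 bases, the upper bound of the shortest of 3 equal classes of all genes, was chosen after this relation was seen. The median log2 fold change was -0.79 for the 17 members below it and -0.19 for the 39 above it, where all genes had -0.22 and 0.25. After removal of a trend in length and GC content in each library, the median over all genes moved from 0.08 to -0.04. The medians of mitosis, S phase and G1 control members were then -0.47, -0.58 and -0.06, 15 members were lower and 1 higher at an unadjusted p under 0.05, against 9.85% and 5.1% of all genes. For 43 of the 56 members the sign held under each of 5 rescalings, the sign of *Mki67*, *Top2a*, *Cenpf*, *Kif11*, *Cdc6*, *Lig1* and *Ccnd2* turned under 2 of them, and that of *Stmn1* and *E2f1* under 3.

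**Figure D5:**
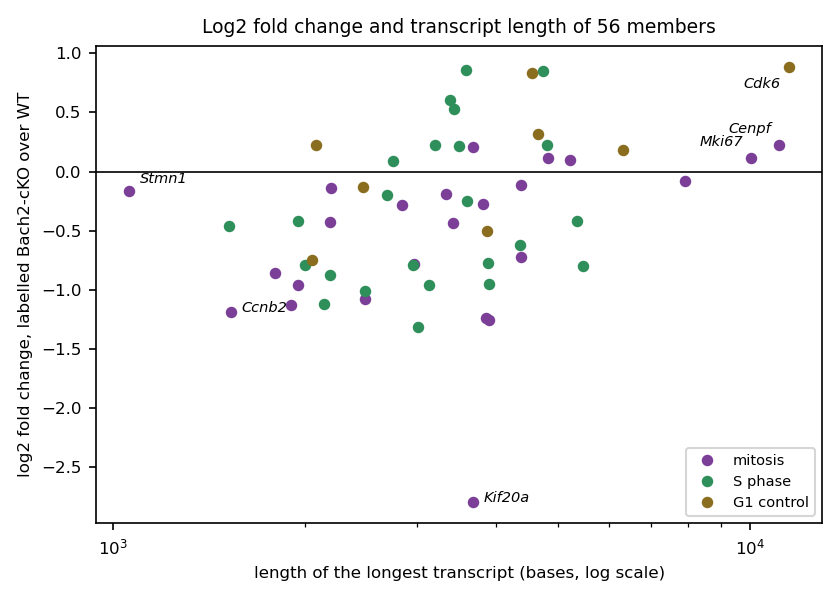
Log2 fold change of the 56 members tested against the length of their longest transcript in bases, on a log axis. Spearman's rho is 0.414, 16 of the 17 members under 2492 bases lie below 0, and 22 of the 39 longer ones do. Of all genes, 2382 of 3755 under that length and 2715 of 7509 longer ones do.

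Other cell cycle genes, 157 outside the 57 and listed by role, were set beside the members. Of 153 tested, 28 were lower and 11 higher at an unadjusted p under 0.05, against 10.2% and 10.1% of all genes, and their median log2 fold change was -0.33. Limma and edgeR called 0 of them, DESeq2 called 1 higher, against 0.292% of all genes, and library weights called 22 lower and 5 higher, against 5.02% and 4.97%. The count of 28 was 17 without WT replicate 1, with a median of -0.14, 53 without WT replicate 2, and 15 and 12 without replicates 1 and 2 labelled Bach2-cKO, against 9.43%, 10.2%, 5.36% and 5.92% of all genes in these fits. The count of 11 was 4 without replicate 1 labelled Bach2-cKO, against 4.14%. The 77 tested genes of mitosis had a median of -0.36, the 45 of S phase of -0.36 and the 31 of G1 control of -0.08. These medians were -0.20, -0.10 and -0.12 without WT replicate 1, -0.70, -0.47 and -0.17 without WT replicate 2, and -0.44, -0.29 and 0.006 without replicate 1 labelled Bach2-cKO.

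By smallest unadjusted p, *Incenp*, a scaffold of the passenger complex, was at 265, 167 and 206 in WT and 884, 462 and 428 in the other group, a log2 fold change of 1.41 (adjusted p = 0.141), and was the gene that DESeq2 called, at 1.63 (adjusted p = 0.00201). *Dnmt1*, the maintenance DNA methyltransferase, was at 305, 455 and 507 against 1077, 727 and 709, and *Fbxw7*, which marks cyclin E for destruction, at 26.2, 150.3 and 82.1 against 304, 262 and 200.5. The libraries labelled Bach2-cKO lay above the WT libraries for each of these genes. *Kif14*, a kinesin of cytokinesis, was at 18.2, 33.7 and 25.0 against 78.3, 65.0 and 119.7, and *Clspn*, claspin of the replication checkpoint, at 133, 181 and 168 against 293, 216 and 370.2, also without overlap.

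In the other direction, *Rfc5*, a clamp loader subunit, was at 1798, 589 and 716 in WT and 278, 245 and 550.3 in the libraries labelled Bach2-cKO, a log2 fold change of -1.44 (adjusted p = 0.151). *Shcbp1* was at 1088, 617 and 879.7 against 338, 218 and 611, and *Ncapg*, a condensin subunit, at 856, 432 and 611 against 167, 269 and 402. The groups did not overlap for these genes. *Zwint*, a kinetochore protein, was at 2371, 2421 and 2672 against 1273, 1388 and 1997, also without overlap. *Slbp*, which binds histone mRNA, was at 3255, 2377 and 3099 against 1246, 1179 and 2392, where replicate 3 labelled Bach2-cKO lay just above WT replicate 2. No gene named here passed an adjusted p of 0.01 where limma gave the 6 libraries the same weight. With library weights *Incenp*, *Fbxw7*, *Rfc5*, *Shcbp1*, *Ncapg* and *Slbp* were among the genes called, *Dnmt1* and *Zwint* passed 0.01 with less than a 2-fold change, and *Kif14* and *Clspn* did not pass it.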

How the data were processed

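The authors deposited a signal per gene and library, read counts divided by a size factor of each library. The paper's methods name Tophat2, HTSeq and DESeq2, and the submitters' processing notes name STAR 2.5.2b, DESeq, R 3.5.1 and DESeq2 1.20.0 on GRCm38/mm10, so that the aligner cannot be told from these sources. Strand was not used here, and reads of overlapping genes were not told apart.

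Values were tested with limma 3.58.1 in R 4.3.3 (trended variance, log2(value + 1), all 6 libraries, no replicate block). Whole reads, within a tolerance of 0.01, were recovered for 100% of the values of 5 libraries by dividing by the smallest value above 0, for edgeR 4.0.16 and DESeq2 1.42.0. WT replicate 1 also came out whole, but its step of 1.01 is so close to 1 that it was not accepted as recovered reads, and it was left out of both. Lengths, GC content and coordinates are of the longest transcript in GENCODE M21 (GRCm38), where 14329 genes matched by symbol and 363 by an older symbol. The trend in length and GC content was fitted in each library by natural splines with 4 degrees of freedom each. Promoters are from RefSeq.

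Members, lists and the rule for named genes were chosen with earlier results of these data known. Every member is named, with values in each library for a set list of them and *Bach2*, for the 5 members with the smallest unadjusted p in each direction, and for the same number of other cell cycle genes. Values of *Mcm6*, *Mcm7*, *Cdc45*, *Rrm1* and *Fen1* were added after they were seen. Alternatives were other pseudocounts, filters, scalings, variance models, library weights, a replicate block, removal of a length and GC trend, count tests and leaving out each library. Removing length alone or GC alone was chosen after seeing the data. Limma, edgeR and DESeq2 were tested on simulated data of 11296 genes for the same comparison. Simulated counts were drawn independently for each gene, with a spread estimated without WT replicate 1. They held no trend in length and GC content and no shift shared by genes of a library. Of 103 genes changed 4-fold they called 73, 60 and 74, of 97 changed 8-fold 78, 74 and 80, and of 11096 unchanged genes 1, 1 and 12. These counts do not give the power or the error rate of the tests in the real libraries. Single values of some marker genes are not reported here.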

Additional observations from a re-analysis of the deposited data

How the results depend on the processing

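Of 46 named genes, 34 kept the sign of their log2 fold change under all 20 other settings, and the cause was not tested where a value changed. Library weights called 561 genes higher and 567 lower, 2 members higher and 10 lower, put 8 members higher and 32 lower at an unadjusted p under 0.05 (24.3% and 22.8% of all genes), gave a median log2 fold change of G1 control members of -0.20 (G1 control median), and turned *Mki67* to -0.13, *Top2a* to -0.12, *Cdt1* to 0.22, *Cdkn1a* to -0.51 and *Rb1* to -0.091. DESeq2 on 5 libraries called 33 genes higher and 57 lower, put 8 members lower, gave a G1 control median of -0.091, and turned *Plk1* to 0.16, *Birc5* to 0.012, *Cdt1* to 0.21, *Cdkn1a* to -0.022 and *Rb1* to -0.19. With edgeR 5 members were lower, the G1 control median was -0.066, and *Plk1* was at 0.19, *Birc5* at 0.04, *Cdt1* at 0.23, *Cdkn1a* at -0.001 and *Rb1* at -0.17. Without a variance trend 3 members were higher and 5 lower (9.05% and 7.83% of all genes). With the length and GC trend removed 1 member was higher and 2 were higher without overlap (5.1% and 8.86% of all genes), the G1 control median was -0.055, and *Mki67* was at -0.39, *Top2a* at -0.16, *Mcm2* at -0.019, *Cdc6* at -0.13, *E2f1* at -0.24 and *Ccnd2* at -0.25. Length alone, chosen after seeing the data, gave 1 and 2 members (5.48% and 9.46%), a median of -0.068, and -0.43 for *Mki67*, -0.30 for *Top2a*, -0.13 for *Cdc6*, -0.30 for *Ccnd2* and -0.02 for *Rb1*. GC alone, also chosen then, gave 2 and 3 members (6.9% and 11.3%), a median of 0.042, -0.25 for *E2f1* and -0.036 for *Cdkn1a*. Quantile normalization put *E2f1* at -0.03. Leaving out each library gave 1 to 5 members higher and 5 to 26 lower at an unadjusted p under 0.05 (4.14% to 13.1% and 5.36% to 14.0% of all genes). It gave 5 to 8 higher and 4 to 26 lower without overlap (17.0% to 27.2% and 14.0% to 23.0% of all genes), and a G1 control median of -0.075 to 0.32. It put *Plk1* between -0.63 and 0.27, *Birc5* between -0.54 and 0.079, *Cdt1* between -0.52 and 0.25, *Cdkn1a* between -0.10 and 0.54, *Rb1* between -0.17 and 0.62, *Mki67* between -0.12 and 0.29, *Top2a* between -0.28 and 0.41, *E2f1* between -0.025 and 0.30, *Cdc6* between -0.066 and 0.64 and *Cdkn2c* between -0.41 and 0.085.

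With the replicate number as a replicate block, limma called 0 genes in either direction and put 5 members higher and 18 lower at an unadjusted p under 0.05, against 9.0% and 9.15% of all genes. Deviations of libraries with the same number correlated at -0.0689, 0.116 and -0.0386 across genes, so the numbers were not taken as pairs. *Fen1* was listed at 0 in 4 libraries, and *Kif20a* was under 10 in 1.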
